A study of Homo sapiens with 4 samples.

Results

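The BCL2 family decides whether a cell's mitochondria release the proteins that start apoptosis, and 10 of its genes are described here in HCT116 cells with and without knockdown of ARID1A. The genes were taken by symbol from tables of 60766 features: BCL2, BCL2L1, MCL1, BAX, BAK1, BID, BBC3, PMAIP1, BCL2L11 and BIK. Each matched 1 row. The choice by symbol set no threshold on measured values, but it was made with earlier results of these data known. HCT116 is an established human colon carcinoma line, and RNA of 4 samples of it was sequenced. By their labels 2 libraries are control and 2 are ARID1A knockdown, made with a short hairpin RNA (shARID1A). ARID1A is the gene of a large SWI/SNF subunit that contacts DNA. The sequence of the hairpin, the vector of the controls, the number of clones and the time after knockdown are not stated in the labels. The study was set up to relate ARID1A to immune functions. Apoptosis genes were not its stated subject.

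The family falls into 3 classes that share a short helix, the BH3 domain. Anti-apoptotic members (BCL2, BCL2L1, MCL1) hold the others in check. The effectors BAX and BAK1 form pores in the outer mitochondrial membrane. BH3-only members (BID, BBC3, PMAIP1, BCL2L11, BIK) carry death signals, either by binding the anti-apoptotic proteins or by activating the effectors. In colon carcinoma cells the family is best known for setting the response to DNA damage and to death ligands.

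Levels are FPKM, fragments per kilobase of transcript, scaled to the mapped fragments of the library, so levels of different genes can be compared per length. The steps between low values gave normalizing totals of 69000000 to 75500000 fragments, at which 1 FPKM over 2 kb of effective length is 138 to 151 fragments. Changes are differences of log2(FPKM + 1), knockdown minus control, on a scale that understates the change of low genes. They were fitted with limma over the 13605 features whose mean reached 1 FPKM, and a gene was called where its Benjamini-Hochberg adjusted p was under 0.05. The labels do not say that the libraries of a group came from separate cultures, so every p measures the spread between these libraries, which may be technical. ARID1A was at 11.1 and 11.4 FPKM in control libraries and at 7.05 and 6.13 FPKM after knockdown (log2 change -0.69, SE 0.077, adjusted p = 0.00438). The exact two-sided permutation test of ARID1A gave p = 0.333, the smallest that 2 against 2 libraries allow. Mitochondrially encoded transcripts made up 4.29% to 4.35% of all FPKM in control libraries and 5.65% to 6.04% after knockdown, and the summed FPKM was 781729.8 to 788282.3 in 3 libraries and 814439.6 in knockdown replicate 2. Of 9 colon epithelial markers, EPCAM, KRT8, KRT18, KRT19, CDH1 and CDX2 were above 1 FPKM in every library, CDX1 was listed at 0 in all 4, and VIL1 and CDH17 stayed at or under 0.207 and 0.163 FPKM. These markers did not move together. EPCAM fell from 312 ± 0.233 to 144 ± 4.27 FPKM (SD, n = 2; log2 change -1.11, adjusted p = 3.63e-04), the keratin genes KRT8, KRT18 and KRT19 rose (log2 changes 0.70, 0.42 and 0.58), and CDH1 and CDX2 were not called. The sum of the 9, most of it keratin, was 3025 and 2920 FPKM in control libraries and 4003 and 4160 FPKM after knockdown, and the part of this sum and of the mitochondrial share in the members' changes was not tested. The 10 leukocyte markers summed to 0.610 to 1.31 FPKM and the 6 endothelial ones to 0.203 to 0.429 FPKM. Of 8 fibroblast markers only COL1A1 passed 1 FPKM, and their sum was 3.77 to 5.07 FPKM in control libraries and 6.24 to 6.43 FPKM after knockdown. In bulk RNA, fewer cells that express a gene and less RNA per cell cannot be told apart.

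Of the 10 genes, 9 passed the filter on low values. In the knockdown, 6 of these rose (BBC3, BAK1, BAX, BIK, BID and MCL1), 2 fell (PMAIP1 and BCL2L11), and BCL2L1 was not called. Among all tested features 37.1% were called, 18.2% as higher and 18.9% as lower. The median log2 change was 0.27 over the 9 tested members and -0.0030 over all tested features. Without adjustment, 8 of the 9 had a limma p under 0.05, beside 48.5% of all tested features. Libraries of the groups did not overlap for any of the 9, and the same held for 72.3% of all tested features. BCL2, the member below the filter, did not overlap either. The changes of the 9 lay between -0.36 and 0.51 on the log2 scale. With any 1 library left out, fewer members and fewer of all features were called. Such a fit has 1 residual degree of freedom, so a smaller count does not single out a library. The log2 change of each tested member kept its sign in these fits.

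**Figure D1:**
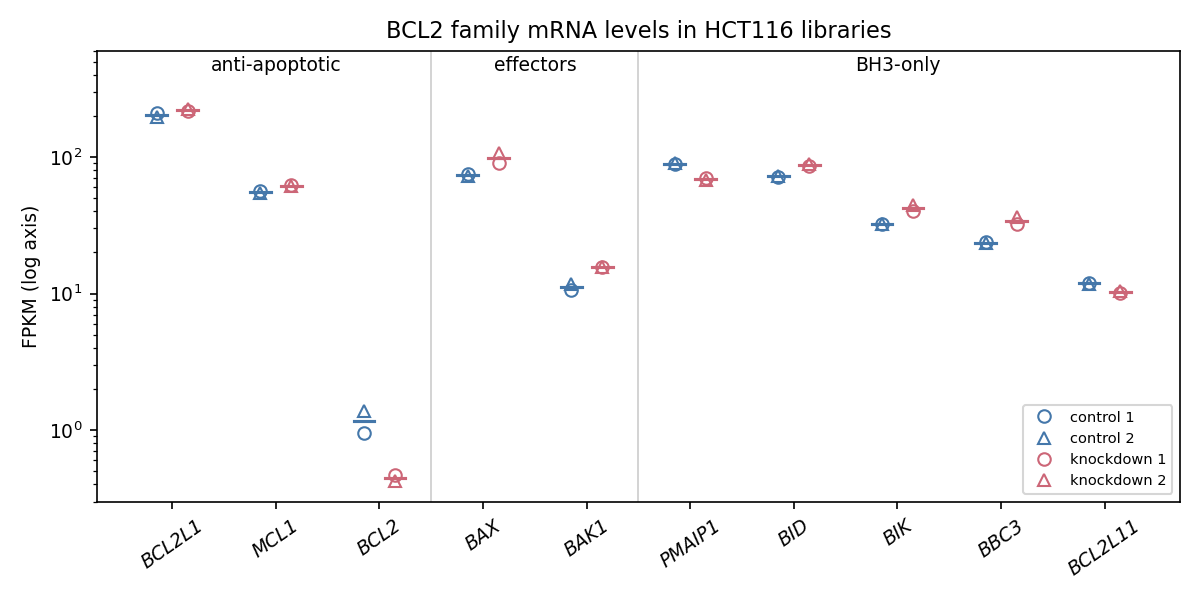
FPKM of the 10 genes in each library on a log axis, with controls in blue, knockdown in red, replicate 1 as circles, replicate 2 as triangles and group means as bars. Levels run from 0.421 FPKM for BCL2 to 224 FPKM for BCL2L1, and the groups are separate for each gene while most steps between them are small.

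The order of levels in control libraries began with BCL2L1 at 204 ± 8.12 FPKM (SD, n = 2) and continued with PMAIP1 at 89.3 ± 0.864 FPKM, BAX at 73.6 ± 1.22 FPKM, BID at 72.4 ± 0.636 FPKM and MCL1 at 55.7 ± 1.07 FPKM. Below these came BIK at 32.1 ± 0.021 FPKM, BBC3 at 23.6 ± 0.393 FPKM, BCL2L11 at 11.9 ± 0.198 FPKM, BAK1 at 11.2 ± 0.806 FPKM and BCL2 at 1.16 ± 0.304 FPKM. The ranges of BAX and BID overlapped, as did those of BCL2L11 and BAK1; no other neighbours in this order did. In the knockdown no neighbours overlapped, PMAIP1 stood in place 4 behind BAX and BID, and BAK1 stood above BCL2L11. BCL2L1 alone made up 34.8% to 36.1% of the summed FPKM of the 10 genes in control libraries and 34.2% to 34.6% after knockdown.

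Of the anti-apoptotic genes, MCL1 rose slightly, BCL2L1 was not called and BCL2, which was lower after knockdown, was too low to be tested. BCL2L1 encodes BCL-XL, which holds BAX, BAK and several BH3-only proteins, and lies on GRCh38 chromosome 20 from 31664452 to 31723989. It was at 209 and 198 FPKM in control libraries and at 216 and 224 FPKM after knockdown. The knockdown libraries were the higher ones, by less than the distance between the controls in the case of knockdown replicate 1. The log2 change of BCL2L1 was 0.11 (95% interval -0.0030 to 0.23, adjusted p = 0.110), so it was not called, and the interval leaves room for a rise. The feature overlaps ABALON, a noncoding RNA inside the same locus, which was at 16.7 and 17.0 FPKM in control libraries and 20.2 and 19.5 FPKM after knockdown. ABALON was chosen after its values were seen. Its rise (log2 change 0.22, adjusted p = 0.0200) was not called without control replicate 1 (adjusted p = 0.102) or 2 (0.0886) or without knockdown replicate 1 (0.0801) or 2 (0.0582). No strand setting is stated, so reads of the overlapping pair cannot be told apart.

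MCL1, a short-lived protein that binds NOXA and BAK, is encoded on chromosome 1 from 150574551 to 150579738. It was at 56.5 and 55.0 FPKM in control libraries and 62.0 and 60.9 FPKM after knockdown, with all knockdown values above all control values. MCL1 rose by a log2 of 0.14 (SE 0.037, adjusted p = 0.0429), the smallest called change among the members. The call was lost without control replicate 1 (adjusted p = 0.121) or 2 (0.189), without knockdown replicate 1 (0.122) or 2 (0.0891), and after rescaling each library to the same summed FPKM (log2 change 0.11, adjusted p = 0.111).

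BCL2, the founding member of the family, lies on chromosome 18 from 63123346 to 63320128. It was at 0.945 and 1.38 FPKM in control libraries and at 0.467 and 0.421 FPKM after knockdown. Both knockdown values lay under both control values, and the ratio of the means was 2.61-fold, the widest of the 10 genes. Its mean of 0.802 FPKM over the libraries put it below the filter, so it was not tested. With a filter of 0.1 FPKM, under which 23.7% of features were called, its log2 change was -0.57 (adjusted p = 0.0384), and with no filter the adjusted p was 0.0943. The values rest on 65.2 and 97.3 fragments per kilobase in control libraries and 35.3 and 31.5 after knockdown. BCL2 made up 0.064% to 0.24% of the summed FPKM of the members in any library.

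**Figure D2:**
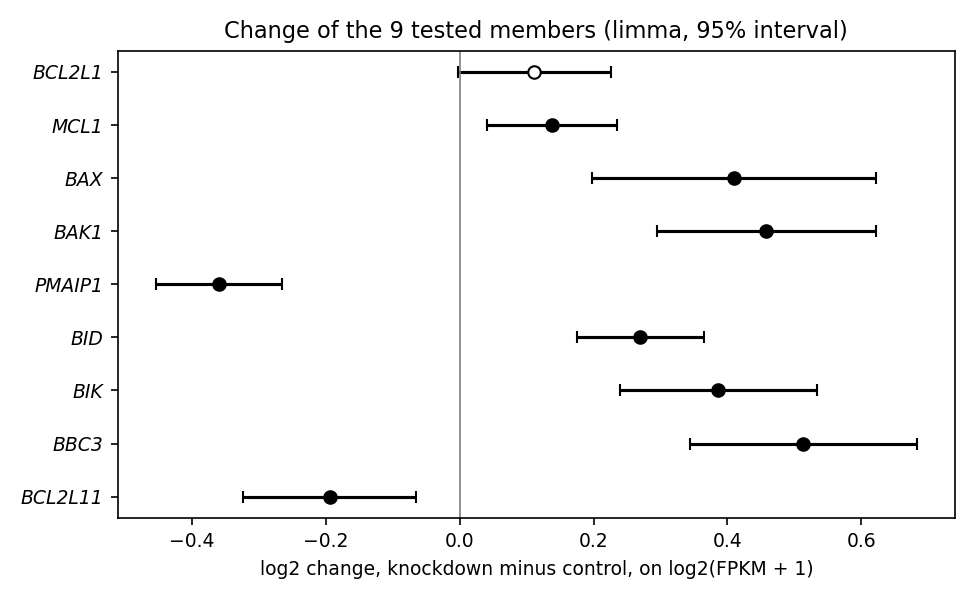
Log2 change of the 9 tested genes, knockdown minus control on log2(FPKM + 1), with the limma 95% interval; filled points were called and the open point was not. BBC3, BAK1, BAX, BIK, BID and MCL1 lie to the right of 0, PMAIP1 and BCL2L11 to the left, and the interval of BCL2L1 includes 0.

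Both effector genes rose. BAX, whose protein moves from the cytosol to mitochondria, was at 74.5 and 72.8 FPKM in control libraries and 90.5 and 106 FPKM after knockdown (chromosome 19, 48954815 to 48961798). The controls lay close together, while the knockdown libraries stood apart from each other, and the library with the higher BAX value was the one with the higher summed FPKM. BAX rose from 73.6 ± 1.22 to 98.4 ± 11.1 FPKM (SD, n = 2), 1.34-fold (log2 change 0.41, SE 0.081, adjusted p = 0.0196). The call was lost without control replicate 1 (adjusted p = 0.0936) or 2 (0.107), and rescaling each library to the same summed FPKM kept it. BAK1 encodes BAK, which sits in the outer membrane from the start, and lies on chromosome 6 from 33572547 to 33580293. It was at 10.6 and 11.8 FPKM in control libraries and 15.7 and 15.8 FPKM after knockdown, where the libraries nearly coincided. BAK1 rose 1.41-fold (log2 change 0.46, SE 0.063, adjusted p = 0.00728) and stayed called under all 13 alternatives run, with adjusted p between 0.00490 and 0.0429. BAK1 transcripts were 0.143 and 0.162 times as abundant as those of BAX in control libraries and 0.173 and 0.148 times after knockdown, so the balance between the effectors overlapped between groups.

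Promoter windows of RefSeq (GRCh38.p14, 250 bases before to 50 after a start) were present for 8 of the 10 genes. They are shown for BAX, PMAIP1 and BCL2L11 as examples of letters that regulators of apoptosis genes can bind. Both the letters and the examples were chosen after the windows had been read, and a match is a description only. Of the letters shown, the E-box also occurs in windows of BBC3 and BID, and the others in no further member's window. The bases printed lie before the RefSeq start and outside every exon of GENCODE release 29. Capitals mark the E-box CACGTG in BAX, the core of the cyclic AMP response element TGACGT (here on the other strand) in PMAIP1 and the FOXO letters GTAAACA in BCL2L11.
BAX, chr19:48954625-48954814, plus strand: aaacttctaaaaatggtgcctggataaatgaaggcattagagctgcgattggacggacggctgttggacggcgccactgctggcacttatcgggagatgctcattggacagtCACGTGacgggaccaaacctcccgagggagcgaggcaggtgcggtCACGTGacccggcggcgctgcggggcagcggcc
PMAIP1, chr18:59899746-59899947, plus strand: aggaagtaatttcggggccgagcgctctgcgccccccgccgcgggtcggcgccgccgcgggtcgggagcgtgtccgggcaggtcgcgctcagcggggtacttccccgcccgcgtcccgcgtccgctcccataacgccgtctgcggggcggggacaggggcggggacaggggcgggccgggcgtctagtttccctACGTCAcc
BCL2L11, chr2:111120664-111120913, plus strand: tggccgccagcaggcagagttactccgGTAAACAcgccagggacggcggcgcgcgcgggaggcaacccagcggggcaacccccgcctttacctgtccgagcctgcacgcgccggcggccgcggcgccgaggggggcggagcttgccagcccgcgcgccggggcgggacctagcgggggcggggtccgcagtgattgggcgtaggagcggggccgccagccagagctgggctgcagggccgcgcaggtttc
The BAX stretch has 2 E-boxes, which begin 138 and 93 bases before the start, and the whole BAX window of 300 bases has 4. Among 35116 windows of this length 7.26% had an E-box on either strand (the letters read the same on both), and 5 windows, or 0.0142%, had 4 or more. The window of BBC3 and 2 of the 5 windows of BID each had 1 E-box. The letters in PMAIP1 begin 56 bases before its start, and 7.98% of all windows hold TGACGT on either strand. Those in BCL2L11, inside the locus the files give for the gene, begin 223 bases before its start, and 3.42% of all windows hold GTAAACA on either strand.

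The BH3-only genes split, with 3 that rose and 2 that fell. BBC3 encodes PUMA, which binds all anti-apoptotic members, and lies on chromosome 19 from 47220822 to 47232766. It was at 23.9 and 23.3 FPKM in control libraries and 32.2 and 36.1 FPKM after knockdown, a wide gap relative to either pair. BBC3 rose 1.45-fold, from 23.6 ± 0.393 to 34.1 ± 2.75 FPKM (SD, n = 2), and had the largest log2 change of the tested members (0.51, SE 0.065, adjusted p = 0.00589). The call was lost without control replicate 2 (adjusted p = 0.0518).

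BIK, an inducer of apoptosis that resides at the endoplasmic reticulum, was at 32.1 FPKM in each control and at 40.3 and 44.3 FPKM after knockdown (chromosome 22, 43110750 to 43129712). It rose 1.32-fold (log2 change 0.39, SE 0.056, adjusted p = 0.00862), and the call was lost without control replicate 1 (adjusted p = 0.0624) or 2 (0.0634). BID links death receptors to mitochondria after cleavage by caspase-8 and lies on chromosome 22 from 17734138 to 17774770. It was at 71.9 and 72.8 FPKM in control libraries and 86.1 and 88.8 FPKM after knockdown, with each pair within 3 FPKM. BID rose 1.21-fold (log2 change 0.27, SE 0.036, adjusted p = 0.00693), and its call was lost without control replicate 1 (adjusted p = 0.0604) or 2 (0.0550).

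PMAIP1 encodes NOXA, which binds MCL1 and speeds its degradation, and lies on chromosome 18 from 59899948 to 59904306. It was at 88.7 and 89.9 FPKM in control libraries and 70.4 and 68.4 FPKM after knockdown. Both knockdown values were far below both control values relative to the spread within a pair. PMAIP1 fell from 89.3 ± 0.864 to 69.4 ± 1.44 FPKM (SD, n = 2; log2 change -0.36, SE 0.036, adjusted p = 0.00336). It stayed called under all 13 alternatives run, with adjusted p between 0.00213 and 0.0410.

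BCL2L11 encodes BIM, which activates BAX and BAK and is a target of FOXO factors, and lies on chromosome 2 from 111119378 to 111168445. It was at 12.0 and 11.7 FPKM in control libraries and 10.2 and 10.4 FPKM after knockdown, a small step without overlap. BCL2L11 fell by 0.19 on the log2 scale (adjusted p = 0.0374), and the call was lost without control replicate 1 (adjusted p = 0.152) or 2 (0.119) and without knockdown replicate 1 (0.130) or 2 (0.109). The locus lies inside that of the long noncoding RNA gene MIR4435-2HG, which was higher in both controls (up to 27.1 FPKM) than after knockdown (21.4 and 19.4 FPKM) and was chosen after its values were seen. MIR4435-2HG fell too (log2 change -0.33, adjusted p = 0.0213), though not in the test without control replicate 1 (adjusted p = 0.108) or 2 (0.0657) or knockdown replicate 2 (0.0745). With no stated strand setting, reads of the overlapping exons cannot be told apart, and their part in the value of BCL2L11 was not tested.

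Class sums, given as a description without a test, put the members side by side. The anti-apoptotic sum was 267 and 254 FPKM in control libraries and 279 and 285 FPKM after knockdown. The effector sum was 85.1 and 84.5 FPKM in control libraries and 106 and 122 FPKM after knockdown, and 0.319 and 0.332 against 0.382 and 0.428 as a ratio to the anti-apoptotic sum. This ratio was thus higher in both knockdown libraries, with BAX supplying most of the effector sum and BCL2L1 most of the anti-apoptotic sum. The BH3-only sum was 229 and 230 FPKM in control libraries and 239 and 248 FPKM after knockdown. As a ratio to the anti-apoptotic sum it was 0.857 and 0.904 against 0.859 and 0.869, so the groups overlapped. Within the BH3-only class, BBC3 was at 0.269 and 0.259 times the level of PMAIP1 in control libraries and 0.457 and 0.528 times after knockdown. PMAIP1 was at 1.57 and 1.64 times the level of its partner MCL1 in control libraries and at 1.14 and 1.12 times after knockdown. BAX was at 0.356 and 0.368 times the level of BCL2L1 in control libraries and at 0.419 and 0.474 times after knockdown. Ratios of mRNA levels are not ratios of protein.

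**Figure D3:**
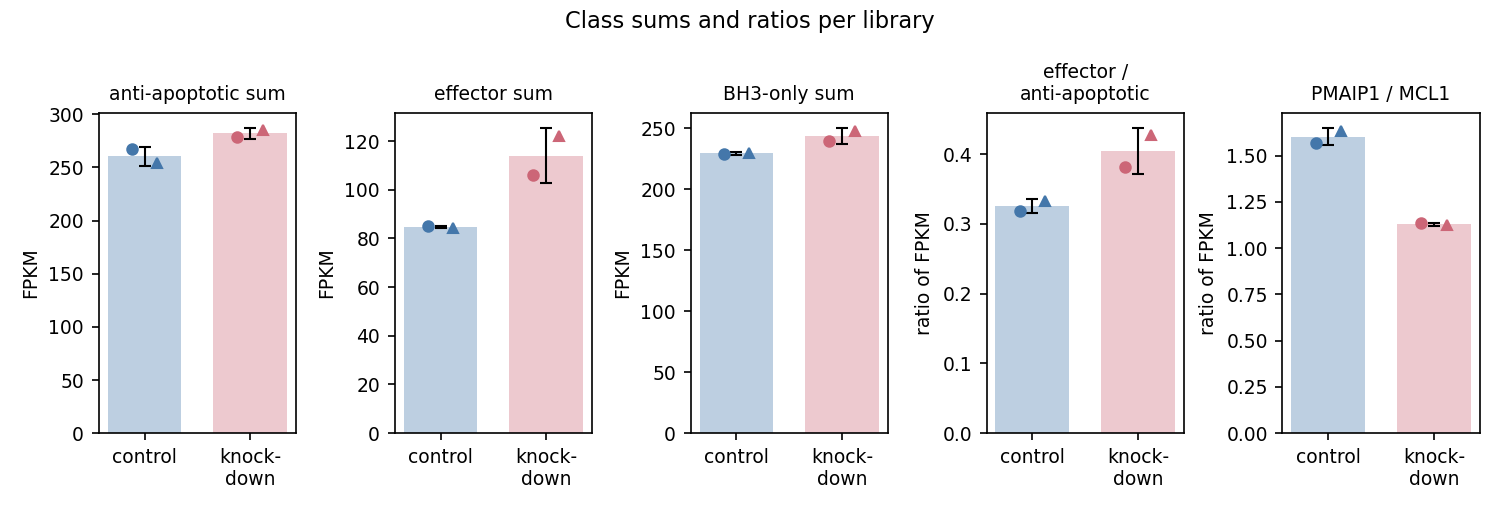
Summed FPKM of the 3 classes and ratios of FPKM, with bars at the group mean, error bars of 1 SD (n = 2) and points for the libraries (replicate 1 circle, replicate 2 triangle). In every panel the groups do not overlap, as for 72.3% of all tested features. The effector sum was 84.5 to 85.1 against 106 to 122 FPKM, and the ratio of PMAIP1 to MCL1 1.57 to 1.64 against 1.12 to 1.14.

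The list of other BCL2 family genes also held genes of BNIP proteins, some of them, as BNIPL, only named for interacting with the family. Of its 11 tested genes, 2 rose and 9 were not called (18.2% called, median log2 change 0.06). BNIP3, a hypoxia-responsive mitophagy receptor, rose from 34.9 ± 2.27 to 46.7 ± 2.04 FPKM (SD, n = 2; log2 change 0.41, adjusted p = 0.00921), and lost its call without control replicate 1 (adjusted p = 0.0534). BAD, a BH3-only protein controlled by phosphorylation, rose from 36.0 ± 0.386 to 45.5 ± 0.153 FPKM (log2 change 0.33, adjusted p = 0.00428). The list had 1 called gene without control replicate 1. BCL2L2, which encodes the anti-apoptotic BCL-W and was chosen after its values were seen, was at 19.1 ± 1.22 and 17.3 ± 0.425 FPKM (adjusted p = 0.138). Of the 16 listed genes, 5 were below the filter, among them BCL2A1 and BCL2L10, each at or under 0.054 FPKM in every library. BNIPL, also below it, was at 0.185 and 0.294 FPKM in control libraries and 1.30 and 1.33 FPKM after knockdown, and BCL2L15 at 0.521 and 0.337 against 0.068 and 0.060 FPKM. Neither gene overlapped between groups or was tested, and both were chosen after their values were seen.

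Downstream of the pores, cytochrome c released from mitochondria assembles APAF1 and caspase-9, which activates the executioner caspases. The list of apoptosome and caspase genes is wider than this step and also holds CASP2 and CASP8, the caspase that cleaves BID. Of its 13 tested genes, 5 rose, 1 fell and 7 were not called, 46.2% called against 37.1% of all features. Their median log2 change was 0.14. The scaffold gene APAF1 rose from 4.08 ± 0.140 to 6.08 ± 0.0804 FPKM (SD, n = 2; log2 change 0.48, adjusted p = 0.00704). CASP2, an initiator caspase, fell from 22.7 ± 1.89 to 16.4 ± 0.433 FPKM (log2 change -0.45, adjusted p = 0.00992). Leaving out control replicate 1, control replicate 2 or knockdown replicate 1 left 3 calls each.

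Inhibitor of apoptosis proteins block caspases or ubiquitinate their partners. Of 6 tested, 2 rose, 1 fell and 3 were not called (median log2 change 0.12). XIAP, the direct caspase inhibitor, fell from 12.9 ± 1.04 to 9.63 ± 1.11 FPKM (SD, n = 2; adjusted p = 0.0350). BIRC3 rose from 2.43 ± 0.233 to 3.38 ± 0.194 FPKM (adjusted p = 0.0406) and BIRC2 from 23.4 ± 0.359 to 26.9 ± 0.364 FPKM (adjusted p = 0.0218). With 1 library left out, the log2 change lay between -0.50 and -0.28 for XIAP, 0.29 and 0.43 for BIRC3, and 0.18 and 0.21 for BIRC2. Such fits have 1 residual degree of freedom, so a lost call does not single out a library. XIAP was not called without control replicate 1 (adjusted p = 0.154) or 2 (0.0841) or knockdown replicate 2 (0.111). BIRC3 was not called without control replicate 1 (adjusted p = 0.143) or 2 (0.0801) or knockdown replicate 1 (0.0880) or 2 (0.145), nor BIRC2 (adjusted p = 0.0883, 0.112, 0.0632 and 0.0842 in the same order). The list thus had 0 calls by limma with control replicate 1, control replicate 2 or knockdown replicate 2 left out, and 1 with knockdown replicate 1 left out, while 3 of its genes had an unadjusted p under 0.05 with all libraries.

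The death receptor pathway reaches mitochondria through BID. Of 11 tested genes, 3 rose, 3 fell and 5 were not called (54.5% called, median log2 change 0.10). RIPK1, a kinase of receptor complexes, rose from 8.63 ± 0.159 to 12.7 ± 0.0737 FPKM (SD, n = 2; log2 change 0.50, adjusted p = 0.00317). FAS, the receptor of FAS ligand, rose from 8.71 ± 0.0147 to 12.3 ± 2.03 FPKM (adjusted p = 0.0366), and lost its call without control replicate 1 (adjusted p = 0.141) or 2 (0.145) or knockdown replicate 1 (0.0606). TNFRSF10D, a decoy receptor of TRAIL, fell from 32.1 ± 0.217 to 24.4 ± 0.805 FPKM (adjusted p = 0.00464). TNFRSF10C, another decoy receptor of TRAIL, rose from 3.70 ± 0.0107 to 5.04 ± 0.0747 FPKM (limma adjusted p = 0.0157) and was chosen after its values were seen. The signalling TRAIL receptor gene TNFRSF10B, chosen after its values were seen, fell from 77.6 ± 2.66 to 61.2 ± 1.11 FPKM (adjusted p = 0.00558). CASP8, the caspase that cleaves BID and likewise chosen after its values were seen, rose from 19.3 ± 0.119 to 23.4 ± 2.04 FPKM (adjusted p = 0.0408). It is counted with the apoptosome and caspase genes and not among these 11. CASP8 was not called with control replicate 1 (adjusted p = 0.146), control replicate 2 (0.160) or knockdown replicate 1 (0.0951) left out. This pathway had 3 called genes without control replicate 2.

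In the outer mitochondrial membrane, channels and import receptors serve as docking sites for BAX, BAK and BID. The list of outer membrane partners is wider than this class and also holds genes of proteins outside that membrane. Of its 12 tested genes 3 rose and 2 fell (41.7% called, median log2 change 0.01). TOMM20, an import receptor, fell from 164 ± 0.320 to 132 ± 2.35 FPKM (SD, n = 2; adjusted p = 0.00387). MTX1 rose from 31.3 ± 0.426 to 38.9 ± 1.83 FPKM (adjusted p = 0.0105), and the channel gene VDAC3 from 87.9 ± 1.67 to 107 ± 2.52 FPKM (adjusted p = 0.00706). MTX1 lost its call without control replicate 1 (adjusted p = 0.0636) or 2 (0.0730), and so did VDAC3 (adjusted p = 0.0504 and 0.0617). Leaving out control replicate 1 left 1 call, control replicate 2 left 2, and knockdown replicate 2 left 3.

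Of 16 tested transcription factors listed for BH3-only genes, 7 fell, 1 rose and 8 were not called (median log2 change -0.09). The list is not limited to known activators of these genes. Of all tested features 37.1% were called and 18.9% fell. JUN fell from 21.2 ± 0.354 to 9.20 ± 0.295 FPKM (SD, n = 2; log2 change -1.12, adjusted p = 5.00e-04). DDIT3 encodes CHOP, a stress factor that acts on BBC3 and BCL2L11 in other settings, and fell from 46.4 ± 1.17 to 20.9 ± 0.361 FPKM (log2 change -1.11, adjusted p = 3.85e-04). ATF3 fell from 26.5 ± 1.47 to 14.4 ± 0.547 FPKM (log2 change -0.84, adjusted p = 0.00143). The genes that follow were chosen after their values were seen. ATF4, a known activator of PMAIP1, fell from 574 ± 5.66 to 444 ± 9.21 FPKM (log2 change -0.37, adjusted p = 0.00275). MYC rose from 285 ± 4.08 to 325 ± 10.3 FPKM (adjusted p = 0.0205), a call lost without control replicate 1 (adjusted p = 0.0996) or 2 (0.128) or knockdown replicate 2 (0.0573). FOXO3, an activator of BCL2L11, was at 11.9 ± 0.255 and 13.0 ± 0.310 FPKM (log2 change 0.13, 95% interval -0.0039 to 0.26, adjusted p = 0.111). Leaving out control replicate 1 left 4 calls, and leaving out control replicate 2 or knockdown replicate 2 left 5.

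Genes for the phosphorylation and turnover of BCL2 family proteins were called in 6 of 19 cases, 4 higher and 2 lower (31.6% called, median log2 change 0.06). PIM1 and PIM3, kinases that phosphorylate BAD, rose from 8.27 ± 0.958 to 12.4 ± 1.79 FPKM (SD, n = 2; adjusted p = 0.0286) and from 60.0 ± 0.0045 to 81.2 ± 4.77 FPKM (adjusted p = 0.00504). FBXW7, which directs ubiquitination of MCL1, rose from 4.57 ± 0.183 to 7.02 ± 0.909 FPKM (adjusted p = 0.0168). PIM1 was not called without control replicate 1 (adjusted p = 0.0692) or 2 (0.129) or knockdown replicate 2 (0.0941). FBXW7 was not called without control replicate 1 (adjusted p = 0.0922) or 2 (0.0762) or knockdown replicate 1 (0.0517). Leaving out control replicate 1 left 1 call on this list, control replicate 2 left 2, and either knockdown library left 3.

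**Figure D4:**
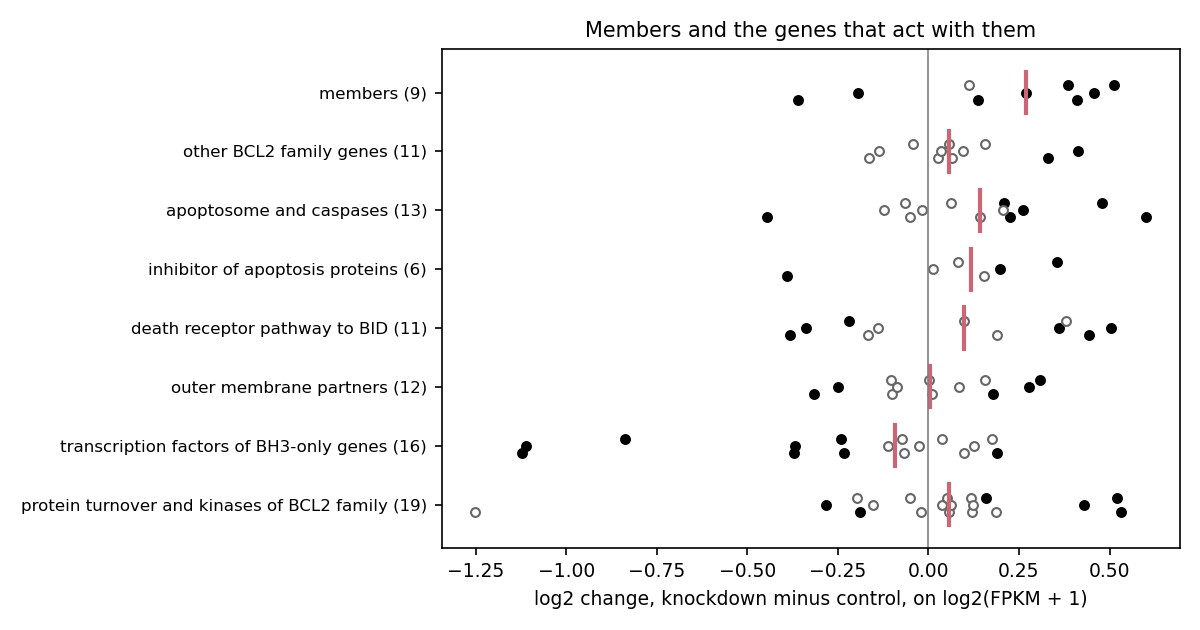
Log2 change, knockdown minus control on log2(FPKM + 1), of each tested gene by list, with filled points for called genes, open points for others and a red bar at the list's median. The members' median is 0.27, the medians of the other lists run from -0.09 to 0.14, and JUN and DDIT3 stand at the far left of the transcription factors.

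By position, the 10 genes lie on 7 chromosomes. BCL2 and PMAIP1 are 3.22 Mb apart on chromosome 18, BBC3 and BAX 1.72 Mb apart on chromosome 19, and BID and BIK 25.3 Mb apart on chromosome 22. Both genes of the pairs on chromosomes 19 and 22 rose, while on chromosome 18 PMAIP1 fell and the untested BCL2 was lower in both knockdown libraries. Within 500 kb of a member, 139 tested neighbours were counted, of which 31 rose and 22 fell, 38.1% in all beside 37.1% of all tested features. PMAIP1 had no tested neighbour within that distance, while BAX had 38, of which 9 rose and 5 fell.

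The pattern of BBC3, the tested member with the largest log2 change, was nearest over the 4 libraries to those of IFITM3, CAPN1 and H3C10. Likeness was the Euclidean distance of log2(FPKM + 1) values after taking off each gene's control mean, and the distances were 0.016, 0.023 and 0.026. IFITM3, an interferon-induced membrane protein, was at 1316 and 1278 FPKM in control libraries and 1744 and 1938 FPKM after knockdown. CAPN1, a calcium-dependent protease, was at 102 and 98.8 FPKM against 135 and 149.8 FPKM. H3C10, a histone H3 gene, was at 0.875 and 0.832 FPKM against 1.52 and 1.84 FPKM. At this low level its likeness to BBC3 depends on the 1 added to FPKM. With 0.1 added instead, the log2 change was 0.897 for H3C10 and 0.530 for BBC3. All 3 were called (adjusted p = 0.00528, 0.00505 and 0.0266). This follows largely from their choice by likeness to BBC3, itself a called gene. IFITM3 lost its call without control replicate 1 (adjusted p = 0.0502) or 2 (0.0564), and H3C10 with control replicate 1 (0.0886), control replicate 2 (0.0981) or knockdown replicate 2 (0.0766) left out.

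The calls of the members differ in how many of the alternatives kept them. The alternatives that leave out a library have 1 residual degree of freedom, so a call lost there does not single out that library. PMAIP1 and BAK1 were called in the reported fit and in every one of 13 alternatives, BBC3 in 12, BID and BIK in 11, BAX in 10, BCL2L11 in 6 and MCL1 in 3. BCL2L1 was called in none of them, with adjusted p between 0.0702 and 0.403. No member changed direction under any of these alternatives.

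**Figure D5:**
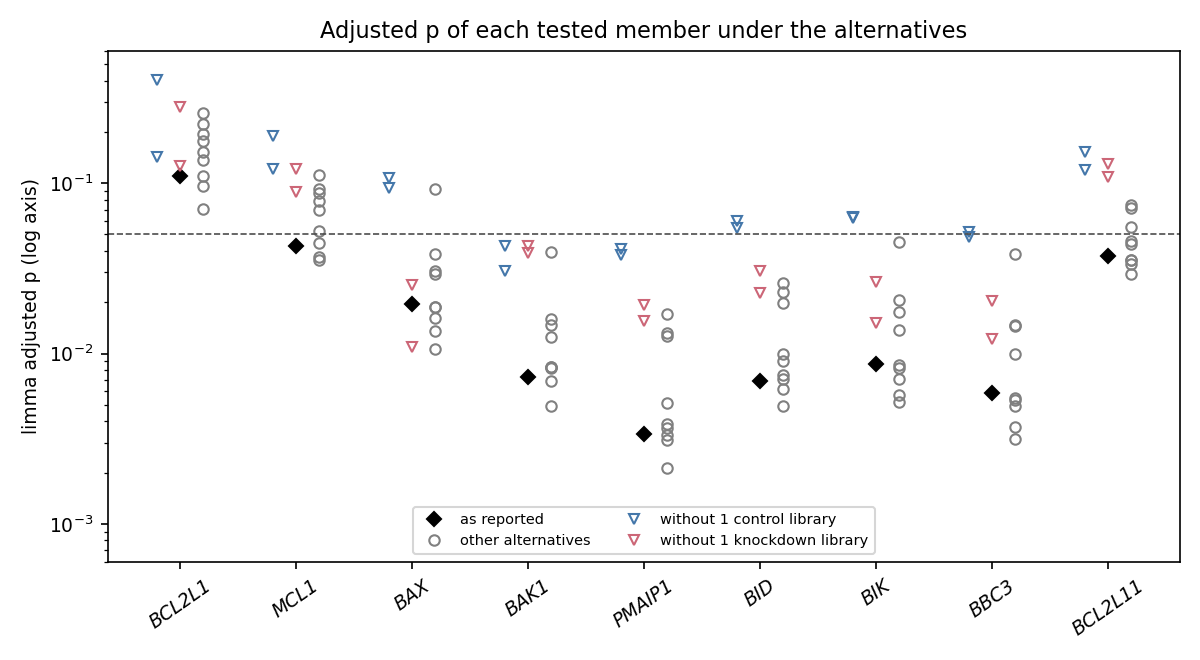
Limma adjusted p of each tested gene on a log axis as reported (black diamonds), without 1 control library (blue), without 1 knockdown library (red) and under the other alternatives (grey), with a dashed line at 0.05. PMAIP1 and BAK1 stay under the line throughout. Leaving out a control library moves the calls of BID, BIK, BAX, MCL1 and BCL2L11 above it, and for BBC3 only leaving out control replicate 2 does. MCL1 and BCL2L11 also lie above it without a knockdown library, and BAX, MCL1 and BCL2L11 under some of the other alternatives.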

How the data were processed

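Total RNA from HCT116 control (2 libraries) and ARID1A knockdown cells (2 libraries) was prepared with a NEBNext Ultra kit, per the labels' protocols. The authors deposited 1 table of FPKM per library, per the file headers. STAR, Cufflinks and GRCh38 (hg38) are named in the submitters' processing notes; versions, annotation and strand setting are not given in those notes. Each table had 60811 rows; 45 second copies of pseudoautosomal genes were dropped and 2347 values under 1e-09 set to 0. Loci are those of the files, with 1 added to each start.

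In R 4.3.3, limma 3.58.1 (lmFit, eBayes with a trend) was run on log2(FPKM + 1) for features with a mean of at least 1 FPKM, and called at a Benjamini-Hochberg adjusted p under 0.05. The fit was tried on simulated data in which far fewer genes changed than were called here. Its rate of false calls in the real libraries was not tested. Depth came from low values of genes with 1 GENCODE 29 transcript: of values worth at most 8 fragments, 77.9% to 80.1% lay within 0.1 of a whole number, and 20.1% to 23.3% did with lengths scrambled. Same-numbered libraries did not deviate together (correlation -0.0099 over genes), so no block was used. Alternatives were another pseudocount, 3 filters, 3 scalings, no trend, a replicate block and leaving out each library.

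The members and lists were chosen with earlier results of these data known. The genes named are ARID1A, the members, up to 3 called genes of each list by absolute log2 change, and the 3 nearest patterns; any other gene was picked with its values known, as the text states. Some genes of the lists are counted but not reported here by name.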

Additional observations from a re-analysis of the deposited data

How the results depend on the processing

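The refits reported leave out TNFRSF10C, CDH1, CDX2, COL1A1, FOXO1 and FOXO4, so the direction of these was not followed. No other tested named gene changed direction, and ARID1A stayed called in its 13. BIRC3 and H3C10 could not be refitted with a filter of 5 FPKM, and BCL2 was fitted under 2 filters only. Across the 9 tested members, 92 of 117 refits kept their side of the threshold. With no filter, 2786 genes were called, 1 member fell, and the lists of caspases, inhibitors of apoptosis, transcription factors and turnover genes had 2, 1, 5 and 3 calls. With a filter of 0.1 FPKM, other BCL2 family genes had 4 calls and inhibitors of apoptosis 1. Quantile normalization gave 8 outer membrane calls. On the TPM scale the log2 ratio of the BH3-only sum was 0.059. With the replicate number as a block, 1 member fell, 5 rose, and inhibitors of apoptosis and turnover genes had 1 and 3 calls; a number alone does not pair these libraries. Without 1 library, called genes ranged from 1900 to 3259, members that rose from 1 to 5 and that fell 1, other BCL2 family genes 1 to 2, caspases 3 to 6, inhibitors of apoptosis 0 to 1, death receptor genes 3 to 5, outer membrane genes 1 to 4, transcription factors 4 to 6, turnover genes 1 to 3, and the log2 ratio of the effector sum 0.33 to 0.52. The cause of these moves was not tested, except that fewer libraries leave 1 residual degree of freedom. No member had a repeated row, so summing rows was not run. Counting error limits BCL2 most.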
